A study of Mus musculus with 2 samples.

Results

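The Trem family receptors and the adaptor Tyrobp were followed across the cell types of inflamed mouse gingiva. The 6 genes are Trem1, Trem2, Trem3, Treml2, Treml4 and Tyrobp, chosen by name and not by any measured value, out of 32285 genes in the files, of which 22407 had at least 1 transcript in a kept cell. Levels come from single-cell RNA sequencing of 2 libraries. One holds gingival cells of recipients of 10% Tet2-/- bone marrow transplantation (BMT), sorted as CD45.2+CD11b+. The other holds those of 10% Tet2+/+ BMT, sorted as CD45+CD11b+ per the protocol, although its title also names CD45.2+. They are called the Tet2-/- and the Tet2+/+ library, although no file marks which cells descend from the 10% of Tet2-/- or Tet2+/+ marrow. Both groups had ligature-induced periodontitis (LIP), gum inflammation provoked by a thread tied around a tooth, for 5 days at 12 weeks after transplantation. Strain, age, the number of animals per library and the deleted part of Tet2 are not stated in the labels.

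TREM receptors are immunoglobulin-domain proteins of the myeloid cell surface. Trem1, Trem2 and Trem3 have short cytoplasmic tails and signal through Tyrobp, better known as DAP12. The tyrosine motif of this small adaptor recruits the kinase Syk once it is phosphorylated. Trem1 amplifies inflammatory responses of neutrophils and monocytes. Trem2 binds lipids and lipoproteins and marks tissue macrophages, microglia and osteoclasts, in which Trem2 and DAP12 take part in cell fusion. Trem3 is a DAP12-coupled receptor found in mice, Treml4 binds dead cells, and Treml2 (TLT-2) is a related receptor of B cells, neutrophils and macrophages.

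The 5 receptor genes lie in one cluster on chromosome 17 of mm10, all on the plus strand and all protein-coding in GENCODE M21, with 1 other protein-coding gene, B430306N03Rik, between Treml2 and Trem2. Trem1 (ENSMUSG00000042265) spans 48232768 to 48246924, Trem3 (ENSMUSG00000041754) 48247777 to 48258841 and Treml4 (ENSMUSG00000051682) 48264295 to 48275360. Treml2 (ENSMUSG00000071068) spans 48299498 to 48312533 and Trem2 (ENSMUSG00000023992) 48346401 to 48354147, so that the cluster fits in 121380 bases. Tyrobp (ENSMUSG00000030579) is on chromosome 7 at 30413760 to 30417585. Within the cluster, Trem1 was highest in neutrophil-like cells, Trem2 in macrophage-like cells and Treml4 in non-classical monocyte-like cells, and the 250 bases before the RefSeq start of these 3 genes are shown because genes of one cluster had such different cell types. They are RefSeq promoters of GRCm38.p6, the assembly called mm10, on the plus strand, 5' to 3', at chr17:48232489-48232738 for Trem1, chr17:48346151-48346400 for Trem2 and chr17:48264045-48264294 for Treml4. RefSeq puts the start of Trem1 somewhat before the GENCODE start given above, so that its window ends short of that start.
Trem1: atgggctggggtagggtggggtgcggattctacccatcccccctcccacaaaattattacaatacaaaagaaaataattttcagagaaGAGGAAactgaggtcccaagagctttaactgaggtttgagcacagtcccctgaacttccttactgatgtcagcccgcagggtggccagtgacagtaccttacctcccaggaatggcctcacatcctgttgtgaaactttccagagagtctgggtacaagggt
Trem2: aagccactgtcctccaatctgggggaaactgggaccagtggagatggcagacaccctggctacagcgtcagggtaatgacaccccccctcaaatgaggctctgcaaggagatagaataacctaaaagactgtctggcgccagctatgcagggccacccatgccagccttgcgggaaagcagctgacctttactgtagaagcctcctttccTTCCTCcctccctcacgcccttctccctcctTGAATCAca
Treml4: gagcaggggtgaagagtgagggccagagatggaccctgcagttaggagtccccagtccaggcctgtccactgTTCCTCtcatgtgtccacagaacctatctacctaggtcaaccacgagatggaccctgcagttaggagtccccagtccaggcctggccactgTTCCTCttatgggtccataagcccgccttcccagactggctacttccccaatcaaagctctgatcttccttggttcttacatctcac
Capitals mark matches on either strand to GAGGAA, a core bound by the myeloid factor PU.1, or to TGANTCA, bound by AP-1. Each of the 3 windows held the PU.1 core, Trem1 and Trem2 at 1 place and Treml4 at 2 places, and 23.3% of all 32851 promoter windows of the same length hold it. The window of Trem2 also held the AP-1 letters, which 6.7% of all windows hold. None of the 3 held TTGCNNAA, a C/EBP motif present in 9.6% of all windows, or the NF-kB motif (GGGA and CC with 4 bases between them), present in 17.6%. That says only that these letters are not in these 250 bases.

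The Tet2-/- library held 93919724 unique transcript counts (UMIs), against 100782700 in the Tet2+/+ library. After filtering, 9596 cells in Tet2-/- and 11672 cells in Tet2+/+ were kept, with a median of 5920 UMIs in Tet2-/- and 5009 UMIs in Tet2+/+, and the libraries shared 31 of their kept barcodes. Itgam, which encodes the CD11b of the sort, was detected in 76.1% (Tet2-/-) and 72.7% (Tet2+/+) of kept cells. B cell-like and T cell-like cells were nonetheless present, with 326 and 201 cells in the Tet2-/- library and 535 and 330 in the Tet2+/+ library. Tet2 transcripts were at 97.8 CPM in Tet2-/- and 81.7 CPM in Tet2+/+, where CPM is the gene's UMIs per 1000000 UMIs of the same cells. Sex-linked transcripts differed between the libraries. Among neutrophil-like cells of the Tet2-/- library 1191 of 4617 carried only Xist and 185 only Y-linked transcripts, against 1 and 3034 of 5490 in the Tet2+/+ library. Genotype, sex and, by the protocol, the sort gate cannot be told apart here. With 1 library per group there is no spread between animals to set a difference against, no test was made, and the 95% intervals cover counting error only. A gene was called higher or lower when its ratio of Tet2-/- over Tet2+/+, with 10 CPM added to both levels, passed 1.5-fold, among genes with 50 CPM in either library and 100 UMIs over both (eligible genes).

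**Figure D1:**
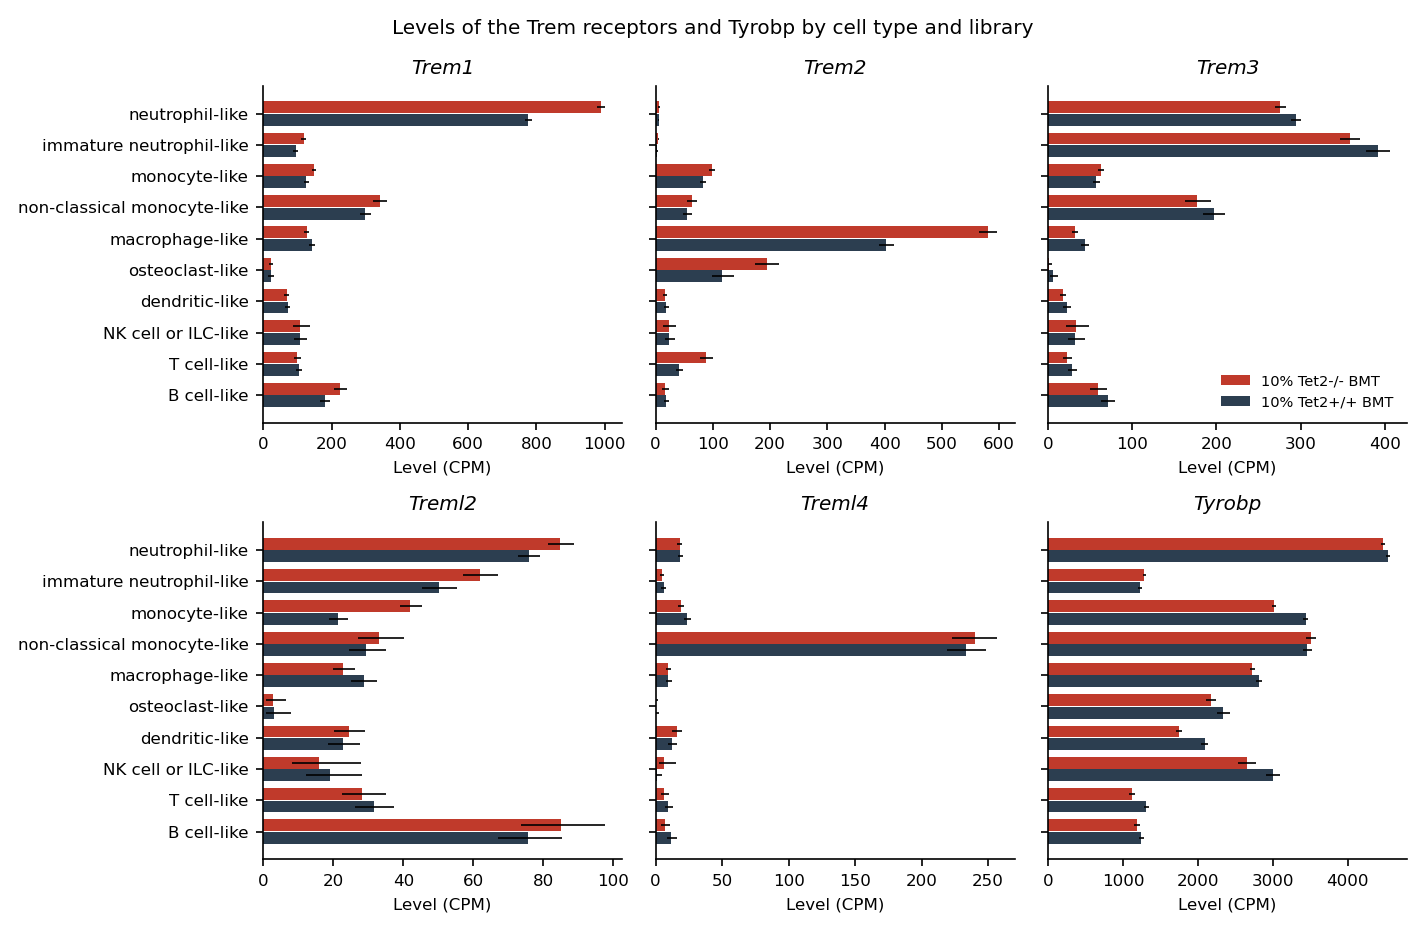
Level of each of the 6 genes in CPM (horizontal axes, from 0, one scale per gene) by cell type, with the 10% Tet2-/- BMT library in red above the 10% Tet2+/+ BMT library in dark blue and exact 95% Poisson intervals of the counts as lines. Trem1 peaks in neutrophil-like, Trem2 in macrophage-like, Trem3 in immature neutrophil-like and Treml4 in non-classical monocyte-like cells of both libraries.

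Trem1 was foremost a neutrophil transcript. In neutrophil-like cells it was at 989 CPM (976 to 1001) in the Tet2-/- library, against 776 CPM (766 to 787) in the Tet2+/+ library, from 23374 UMIs in Tet2-/- and 21904 UMIs in Tet2+/+. These cells held 63.8% (Tet2-/-) and 62.7% (Tet2+/+) of all Trem1 UMIs, and 91.3% (Tet2-/-) and 87.5% (Tet2+/+) of them had at least 1. Non-classical monocyte-like cells, the patrolling type marked by Ace, were next among the named classes in both libraries, at 342 CPM in Tet2-/- and 299 CPM in Tet2+/+. The unnamed clusters led by Obp1a (1432 CPM in Tet2-/- and 1013 CPM in Tet2+/+) and Siglecf (842 CPM in Tet2-/- and 635 CPM in Tet2+/+) had more. Monocyte-like cells were at 149 CPM in Tet2-/- and 126 CPM in Tet2+/+. Macrophage-like cells were at 128 CPM in Tet2-/- and 142 CPM in Tet2+/+. Immature neutrophil-like cells, with primary granule transcripts such as Elane, were at 119 CPM in Tet2-/- and 94.9 CPM in Tet2+/+. The order of monocyte-like and macrophage-like cells was thus not the same in the libraries. Dendritic-like cells were at 68.4 CPM in Tet2-/- and 71.2 CPM in Tet2+/+, and osteoclast-like cells, of which there were 38 (Tet2-/-) and 26 (Tet2+/+), at 21.9 CPM in each library.

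Part of the Trem1 in other cell types lay in cells that also held neutrophil transcripts. B cells should lack the gene, and the B cell-like cluster led by Cd79a had 23 CPM in Tet2-/- and 24 CPM in Tet2+/+. A Trem1 UMI was found in 9.17% (Tet2-/-) and 12.3% (Tet2+/+) of its cells, at median depths of 4609 UMIs in Tet2-/- and 4545 UMIs in Tet2+/+, close to the 4216 UMIs in Tet2-/- and 4089 UMIs in Tet2+/+ of neutrophil-like cells. The B cell-like cluster led by Ebf1 had far more, 484 CPM in Tet2-/- and 391 CPM in Tet2+/+. There the 13 neutrophil markers summed to 99448 CPM in Tet2-/- and 105651 CPM in Tet2+/+, against 5646 CPM in Tet2-/- and 6991 CPM in Tet2+/+ in the cluster led by Cd79a. Macrophage-like cells showed the same co-occurrence. Those with a Trem1 UMI held 59865 CPM of neutrophil markers in the Tet2-/- library and 63122 CPM in the Tet2+/+ library, while those without held 5372 CPM in Tet2-/- and 8437 CPM in Tet2+/+. Trem3 was found in 45.6% (Tet2-/-) and 43.8% (Tet2+/+) of the Trem1-carrying macrophage-like cells, and in 4.87% (Tet2-/-) and 6.13% (Tet2+/+) of the others. In non-classical monocyte-like cells the neutrophil markers summed to 93286 CPM in Tet2-/- and 90787 CPM in Tet2+/+, near the sums of the cluster led by Ebf1. Free RNA, read from barcodes with 1 to 50 UMIs, held Trem1 at 476 CPM in Tet2-/- and 423 CPM in Tet2+/+. How far doublets or free RNA set the Trem1 level of any of these cell types was not tested.

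Within the neutrophil-like class, Trem1 differed more between clusters than between libraries. The cluster led by Mmp8, a collagenase of neutrophil granules, had 385 CPM in Tet2-/- and 320 CPM in Tet2+/+, and the cluster led by Retnlg 794 CPM in Tet2-/- and 606 CPM in Tet2+/+. The cluster led by the G-CSF receptor gene Csf3r had 1138 CPM in Tet2-/- and 900 CPM in Tet2+/+. That led by the interferon-induced gene Ifit1 had 1408 CPM in Tet2-/- and 923 CPM in Tet2+/+. Activation transcripts led 2 of the high clusters. That led by the chemokine gene Ccl3 had 1416 CPM in Tet2-/- and 1388 CPM in Tet2+/+, and that led by Acod1, the enzyme that makes itaconate, 1848 CPM in Tet2-/- and 1681 CPM in Tet2+/+. In the immature class, the cluster led by Elane had 103 CPM in Tet2-/- and 65.3 CPM in Tet2+/+. The unnamed cluster led by the granule gene Ltf lay in between, at 667 CPM in Tet2-/- and 450 CPM in Tet2+/+. In both libraries the cluster led by Acod1 was the highest of the class and that led by Mmp8 the lowest.

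Trem3, the next receptor gene after Trem1, peaked at the immature end of the neutrophil clusters. It was highest in immature neutrophil-like cells, at 359 CPM (347 to 371) in the Tet2-/- library and 392 CPM (378 to 406) in the Tet2+/+ library. There 91.9% (Tet2-/-) and 96.4% (Tet2+/+) of cells had a UMI, at median depths of 20173 UMIs in Tet2-/- and 17608 UMIs in Tet2+/+, while in the B cell-like cluster led by Cd79a the share was 3.49% (Tet2-/-) and 4.46% (Tet2+/+). Neutrophil-like cells followed, at 276 CPM in Tet2-/- and 294 CPM in Tet2+/+. The level was 177 CPM in Tet2-/- and 197 CPM in Tet2+/+ in non-classical monocyte-like and 62.6 CPM in Tet2-/- and 57.3 CPM in Tet2+/+ in monocyte-like cells. The part of neutrophil RNA in the Trem3 of non-classical monocyte-like cells, whose neutrophil markers are given above, was not tested. Among clusters of these 2 classes, those led by Orm1, Elane and Mmp8 had the 3 highest levels in both libraries. The cluster led by Orm1 had 408 CPM in Tet2-/- and 394 CPM in Tet2+/+ and that led by Mmp8 341 CPM in Tet2-/- and 360 CPM in Tet2+/+. The clusters with the most Trem1 had less Trem3, with 264 CPM in Tet2-/- and 272 CPM in Tet2+/+ in that led by Acod1 and 177 CPM in Tet2-/- and 212 CPM in Tet2+/+ in that led by Ccl3. In macrophage-like cells Trem3 was at 31.7 CPM in Tet2-/- and 43.3 CPM in Tet2+/+, below its free RNA level of 133 CPM in Tet2-/- and 157 CPM in Tet2+/+. How reads that match both Trem1 and Trem3 would have been counted is not stated in the labels.

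**Figure D2:**
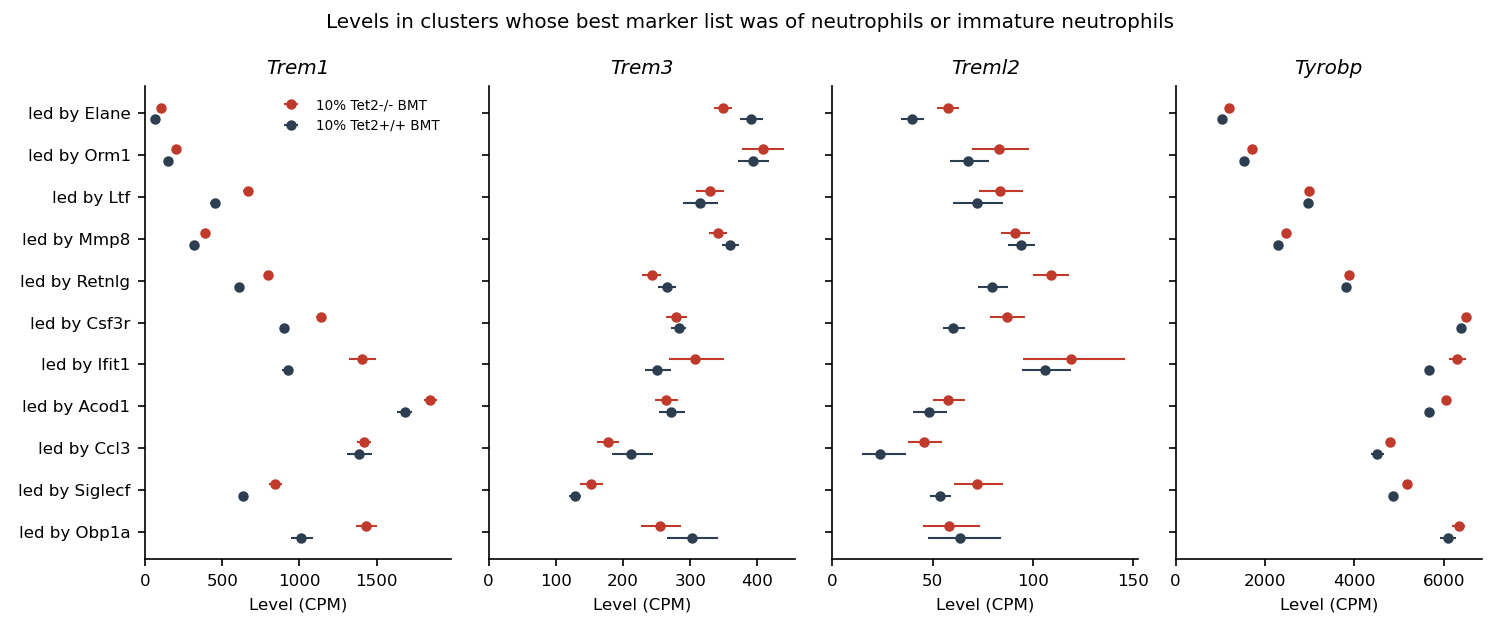
Levels in CPM (horizontal axes, from 0) of Trem1, Trem3, Treml2 and Tyrobp in 11 clusters, each named by its leading gene, with the 10% Tet2-/- BMT library in red above the 10% Tet2+/+ BMT library in dark blue and exact 95% Poisson intervals as lines. Trem1 runs up to 1848 CPM in Tet2-/- and 1681 CPM in Tet2+/+ in the cluster led by Acod1 while Trem3 is highest in the clusters led by Elane and Orm1. The clusters led by Ltf, Siglecf and Obp1a carry no cell type name.

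Trem2 was a macrophage and osteoclast transcript. Macrophage-like cells had 581 CPM (565 to 597) in the Tet2-/- library, against 403 CPM (390 to 417) in the Tet2+/+ library, and held 62.4% (Tet2-/-) and 60.3% (Tet2+/+) of all Trem2 UMIs. Osteoclast-like cells, led by the bone-resorbing protease gene Ctsk, had 194 CPM (174 to 215) in the Tet2-/- library and 116 CPM (97.7 to 136) in the Tet2+/+ library. Monocytes held less. Monocyte-like cells had 98.4 CPM in Tet2-/- and 83.1 CPM in Tet2+/+ and non-classical monocyte-like cells 62.9 CPM in Tet2-/- and 55.2 CPM in Tet2+/+. Neutrophil-like cells had 5.92 CPM in Tet2-/- and 5.49 CPM in Tet2+/+, with a UMI in 2.86% (Tet2-/-) and 2.64% (Tet2+/+) of cells at median depths of 4216 UMIs in Tet2-/- and 4089 UMIs in Tet2+/+, which serves as background. In macrophage-like cells, at median depths of 10507 UMIs in Tet2-/- and 8401 UMIs in Tet2+/+, the share was 78.5% (Tet2-/-) and 65.1% (Tet2+/+). After thinning each cell to 500 UMIs it was 24% (Tet2-/-) and 18.1% (Tet2+/+), against 0.455% (Tet2-/-) and 0.419% (Tet2+/+) in neutrophil-like cells.

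The macrophage-like clusters were not alike. That led by C1qa, a complement component of resident macrophages, had 604 CPM in Tet2-/- and 426 CPM in Tet2+/+ of Trem2, and that led by Cxcl9, whose cells are shallow, 609 CPM in Tet2-/- and 472 CPM in Tet2+/+. The cluster led by Ccl8 had 178 CPM in Tet2-/- and 137 CPM in Tet2+/+. In that last cluster the neutrophil markers summed to 205653 CPM in Tet2-/- and 213569 CPM in Tet2+/+, and Trem1 was at 1007 CPM in Tet2-/- and 687 CPM in Tet2+/+.

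T cell-like cells had Trem2 at 88.5 CPM in Tet2-/- and 40.8 CPM in Tet2+/+, a ratio of 2.17 (1.78 to 2.65), past the fold as were 3.09% of eligible genes there. The UMIs lay in a minority of cells. In the Tet2-/- library 48 of 201 cells had any, in the Tet2+/+ library 56 of 330, and single cells held up to 40 UMIs in Tet2-/- and 24 UMIs in Tet2+/+. Cells with a Trem2 UMI had 16318 CPM in Tet2-/- and 10686 CPM in Tet2+/+ of the 12 macrophage markers, while those without had 1146 CPM in Tet2-/- and 1471 CPM in Tet2+/+. Free RNA held Trem2 at 143 CPM in Tet2-/- and 70.4 CPM in Tet2+/+. The part of macrophage RNA in the T cell-like values was not tested.

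Treml4 was a transcript of non-classical monocytes. Non-classical monocyte-like cells had 240 CPM (223 to 257) in the Tet2-/- library and 233 CPM (219 to 248) in the Tet2+/+ library. A UMI was found in 84.3% (Tet2-/-) and 82.2% (Tet2+/+) of these cells, at median depths of 10669 UMIs in Tet2-/- and 10046 UMIs in Tet2+/+, and in 7.71% (Tet2-/-) and 6.73% (Tet2+/+) of macrophage-like cells, whose median depths were 10507 UMIs in Tet2-/- and 8401 UMIs in Tet2+/+. These 261 cells in Tet2-/- and 359 cells in Tet2+/+ held 37.9% (Tet2-/-) and 40.3% (Tet2+/+) of all Treml4 UMIs. The other named types were far lower. Monocyte-like cells had 19.2 CPM in Tet2-/- and 23.7 CPM in Tet2+/+ and neutrophil-like cells 18 CPM in Tet2-/- and 18.6 CPM in Tet2+/+. Osteoclast-like cells had 0 UMIs in either library, for which the Poisson intervals end at 2.07 CPM in Tet2-/- and 2.88 CPM in Tet2+/+. The cluster led by Siglecf, left unnamed although neutrophil markers fitted it best, had 52.5 CPM in Tet2-/- and 41 CPM in Tet2+/+.

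**Figure D3:**
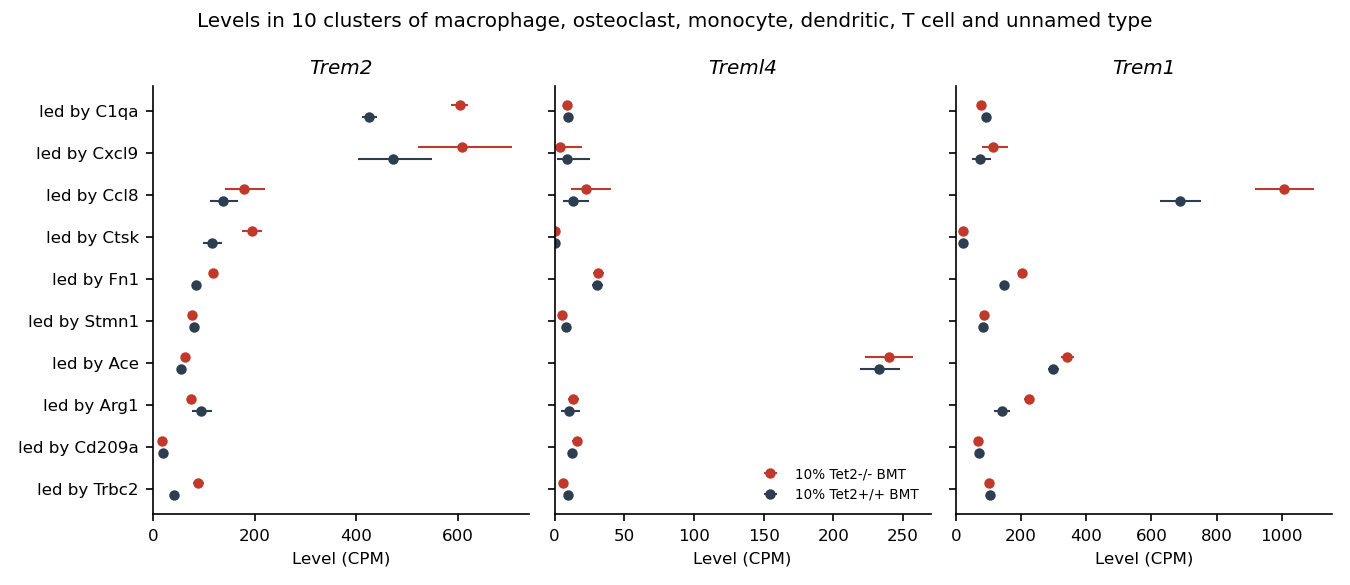
Levels in CPM (horizontal axes, from 0) of Trem2, Treml4 and Trem1 in 10 clusters, named by leading gene, with the 10% Tet2-/- BMT library in red above the 10% Tet2+/+ BMT library in dark blue and exact 95% Poisson intervals as lines. Trem2 is highest in the macrophage-like clusters led by C1qa and Cxcl9, Treml4 in the non-classical monocyte-like cluster led by Ace, and Trem1 in the cluster led by Ccl8.

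Treml2 was shared between neutrophils and B cells. Neutrophil-like cells had 84.8 CPM (81.2 to 88.6) in the Tet2-/- library and 75.8 CPM (72.6 to 79.1) in the Tet2+/+ library. B cell-like cells had 84.9 CPM (73.5 to 97.6) in the Tet2-/- library and 75.7 CPM (67 to 85.2) in the Tet2+/+ library, so that the intervals of the 2 types overlapped in each library. The level held in the B cell-like cluster led by Cd79a, where neutrophil markers were low, at 77.3 CPM in Tet2-/- and 76.8 CPM in Tet2+/+. Free RNA held Treml2 at 42.8 CPM in Tet2-/- and 40.9 CPM in Tet2+/+, less than either type. Immature neutrophil-like cells had 61.9 CPM in Tet2-/- and 50.1 CPM in Tet2+/+. In monocyte-like cells Treml2 was at 42 CPM (39 to 45.2) in the Tet2-/- library and 21.3 CPM (18.8 to 24.1) in the Tet2+/+ library, a ratio of 1.97 (1.7 to 2.28). Both levels were under the minimum of 50 CPM, so that this difference was not counted among the calls. The monocyte-like cluster led by Fn1 had 34.4 CPM in Tet2-/- and 17.5 CPM in Tet2+/+, a ratio of 1.97 (1.61 to 2.41), also under the minimum. In the cycling monocyte-like cluster, led by Stmn1, the levels of 50.9 CPM in Tet2-/- and 30 CPM in Tet2+/+ passed the minimum and the fold, as did 2.12% of eligible genes there. Neutrophil markers in that cluster summed to 23210 CPM in Tet2-/- and 14778 CPM in Tet2+/+, and their part in the Treml2 value was not tested.

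Tyrobp, the adaptor, was abundant wherever myeloid cells were. It was highest in neutrophil-like cells, at 4474 CPM in Tet2-/- and 4540 CPM in Tet2+/+. Non-classical monocyte-like cells had 3513 CPM in Tet2-/- and 3463 CPM in Tet2+/+ and monocyte-like cells 3013 CPM in Tet2-/- and 3439 CPM in Tet2+/+. Macrophage-like cells had 2729 CPM in Tet2-/- and 2817 CPM in Tet2+/+. NK cell-like or ILC-like cells, where DAP12 serves activating NK receptors, had 2657 CPM in Tet2-/- and 3002 CPM in Tet2+/+. Dendritic-like cells had 1747 CPM in Tet2-/- and 2091 CPM in Tet2+/+ and immature neutrophil-like cells 1285 CPM in Tet2-/- and 1226 CPM in Tet2+/+. B cells make little of it, and the cluster led by Cd79a had 272 CPM in Tet2-/- and 256 CPM in Tet2+/+ while free RNA held 4247 CPM in Tet2-/- and 4558 CPM in Tet2+/+. In macrophage-like cells, 99.7% (Tet2-/-) and 98.9% (Tet2+/+) of those with a Trem2 UMI also had a Tyrobp UMI, and 97.7% (Tet2-/-) and 95% (Tet2+/+) of those without. For Trem1 in neutrophil-like cells the shares were 99.3% (Tet2-/-) and 99.6% (Tet2+/+) with and 95.3% (Tet2-/-) and 95.9% (Tet2+/+) without. Tyrobp was thus found in nearly all of these cells, whether or not a receptor was found. Among the 6 clusters of the neutrophil-like class the lowest level was in that led by Mmp8, at 2478 CPM in Tet2-/- and 2288 CPM in Tet2+/+, and the highest in that led by Csf3r, at 6503 CPM in Tet2-/- and 6396 CPM in Tet2+/+.

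The design asks how the receptors differ between the transplants. In the 6 named myeloid classes with 50 or more cells in each library, 0 of the eligible ones among the 6 genes passed 1.5-fold. That minimum of cells was set after the cell numbers were seen. It leaves out osteoclast-like cells, where Trem2 passed the fold, as given below. Treml2 in monocyte-like cells, given above, passed the fold but not the minimum level. The share of all eligible genes past that fold in either direction was 4.27% in neutrophil-like, 3.74% in immature neutrophil-like, 2.62% in monocyte-like, 2.41% in non-classical monocyte-like, 2.48% in macrophage-like and 2.13% in dendritic-like cells. Few genes passed it, so the count of 0 does not set the receptors apart from the rest. Eligible were 4 of the 6 genes in neutrophil-like, immature neutrophil-like and monocyte-like cells, 5 in non-classical monocyte-like, 3 in macrophage-like and 2 in dendritic-like cells.

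Trem2 in macrophage-like cells had the largest ratio among these, 1.44 (1.38 to 1.5), a log2 ratio of 0.51 where the median of all genes was -0.02. It was above 1 in each of the 3 macrophage-like clusters, at 1.42 (1.35 to 1.48) in that led by C1qa, 1.29 (1.04 to 1.61) in that led by Cxcl9 and 1.3 (0.96 to 1.76) in that led by Ccl8. The interval of the last included 1. That cluster held more neutrophil markers, 205653 CPM in Tet2-/- and 213569 CPM in Tet2+/+, than macrophage markers, 14354 CPM in Tet2-/- and 12962 CPM in Tet2+/+. The macrophage markers themselves summed to 48649 CPM in Tet2-/- and 39565 CPM in Tet2+/+ in macrophage-like cells, most of it from Apoe. The part of macrophage purity in the Trem2 ratio of this class was not tested. In osteoclast-like cells the ratio was 1.68 (1.38 to 2.05), past the fold as were 3.96% of eligible genes, from 346 UMIs of 38 cells in the Tet2-/- library and 148 UMIs of 26 cells in the Tet2+/+ library. The macrophage markers in osteoclast-like cells summed to 2376 CPM in Tet2-/- and 1584 CPM in Tet2+/+. Of these sums, Apoe made up 1724 CPM in Tet2-/- and 1200 CPM in Tet2+/+. Free RNA held Trem2 at 143 CPM in Tet2-/- and 70.4 CPM in Tet2+/+. The part of macrophage RNA and of free RNA in the osteoclast-like ratio was not tested. Monocyte-like cells had 1.18 (1.09 to 1.28). Their cluster led by Fn1, a matrix protein gene, had 1.38 (1.26 to 1.52), and the cycling cluster led by Stmn1 had 0.961 (0.836 to 1.11). Sex-linked transcripts divide the macrophage-like values further. Cells of the Tet2-/- library had 722 CPM (685 to 760) where only Y-linked transcripts were found and 539 CPM (518 to 560) where only Xist was found. Y-carrying cells of the Tet2+/+ library had 384 CPM (369 to 400), below both. Among Y-carrying cells alone the log2 ratio of Trem2 was 0.89, and for Xist-carrying over Y-carrying cells it was 0.48.

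Trem1 had a ratio of 1.27 (1.25 to 1.3) in neutrophil-like cells, a log2 ratio of 0.34 where the median of all genes was -0.04. It was above 1 in each of the 6 clusters of the class. The lowest was 1.02 (0.956 to 1.09) in that led by Ccl3, and the highest 1.53 (1.42 to 1.64) in that led by Ifit1, the one cluster of the class past the fold, as were 11.6% of eligible genes there. The mix of clusters differed between the libraries, with that led by Ccl3 at 13.8% (Tet2-/-) and 3.95% (Tet2+/+) of the class. With both libraries set to one mix the log2 ratio was 0.28. Scaling by TMM or by the median of ratios, which moved the median of all genes to 0.12 and 0.13, gave 0.50 and 0.52. The ratio was 1.26 (1.14 to 1.38) in immature neutrophil-like, 1.18 (1.11 to 1.26) in monocyte-like and 1.14 (1.05 to 1.24) in non-classical monocyte-like cells. Both immature clusters were above their class, at 1.57 (1.38 to 1.79) in that led by Elane and 1.36 (1.18 to 1.58) in that led by Orm1. The first was not called, as 10 CPM was added to both levels. It held 72.1% (Tet2-/-) and 50.5% (Tet2+/+) of the class. Among monocyte-like clusters the ratio was 1.38 (1.29 to 1.49) in that led by Fn1 and 1.05 (0.919 to 1.21) in that led by Stmn1. The Trem1 ratio was 0.895 (0.824 to 0.972) in macrophage-like and 0.961 (0.824 to 1.12) in dendritic-like cells. Neutrophil markers summed to 21144 CPM in Tet2-/- and 14724 CPM in Tet2+/+ in monocyte-like cells. They summed to 25972 CPM in Tet2-/- and 34940 CPM in Tet2+/+ in macrophage-like and 12375 CPM in Tet2-/- and 17772 CPM in Tet2+/+ in dendritic-like cells. In non-classical monocyte-like cells the sums were 93286 CPM in Tet2-/- and 90787 CPM in Tet2+/+. In immature neutrophil-like cells they were 290067 CPM in Tet2-/- and 333890 CPM in Tet2+/+. The part of neutrophil RNA in the Trem1 ratios of these classes was not tested. The macrophage-like log2 ratio of -0.15 became 0.08 with both libraries set to one mix of clusters, and -0.27 with the clusters led by Ccl8 and Cxcl9 left out, a setting chosen after seeing the data.

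The neutrophil difference in Trem1 did not hold in every sex-typed split. In the Tet2-/- library, neutrophil-like cells with only Xist had 724 CPM (705 to 743), those with only Y-linked transcripts 1197 CPM (1134 to 1264) and those with neither 1118 CPM (1100 to 1135). In the Tet2+/+ library, Y-carrying cells had 747 CPM (734 to 760) and cells with neither 823 CPM (806 to 840). The Xist-carrying cells were thus the ones near the Tet2+/+ level. They were also deeper, with a median of 6006 UMIs where Y-carrying and untyped cells of their library had 4992 and 3886 UMIs. Y-carrying cells of both libraries gave a log2 ratio of 0.67, and Xist-carrying over Y-carrying cells gave -0.04. The part of sex, of host or donor origin and of neutrophil state in this split was not tested.

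For the other genes, the largest ratio of a class with 100 UMIs in each library was the 1.97 of Treml2 in monocyte-like cells. Trem3 had a ratio of 0.94 (0.91 to 0.972) in neutrophil-like cells, a log2 ratio of -0.09 that became 0.07 with TMM and 0.08 with median of ratios scaling. In immature neutrophil-like cells it had 0.915 (0.871 to 0.961). Treml2 had 1.12 (1.05 to 1.19) in neutrophil-like and 1.24 (1.08 to 1.41) in immature neutrophil-like cells. Treml4 had 1.03 (0.933 to 1.13) in non-classical monocyte-like cells. In immature neutrophil-like cells the median log2 ratio of all genes was 0.16, and with TMM scaling, which set it to zero, the 0.30 of Trem1 became 0.14 and the 0.26 of Treml2 became 0.11. Tyrobp had 0.876 (0.865 to 0.888) in monocyte-like and 0.835 (0.812 to 0.86) in dendritic-like cells. Its ratio was 0.937 (0.924 to 0.952) in the monocyte-like cluster led by Fn1 and 1 (0.975 to 1.03) in that led by Stmn1. The cluster led by Stmn1 held 29% (Tet2-/-) and 17.5% (Tet2+/+) of that class. In neutrophil-like cells the Tyrobp ratio was 0.986 (0.978 to 0.994), but it was above 1 in every cluster of the class. These ran from 1.02 in that led by Csf3r to 1.11 in that led by Ifit1. The Tyrobp log2 ratios of -0.02 in neutrophil-like and 0.07 in immature neutrophil-like cells changed sign with either scaling.

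**Figure D4:**
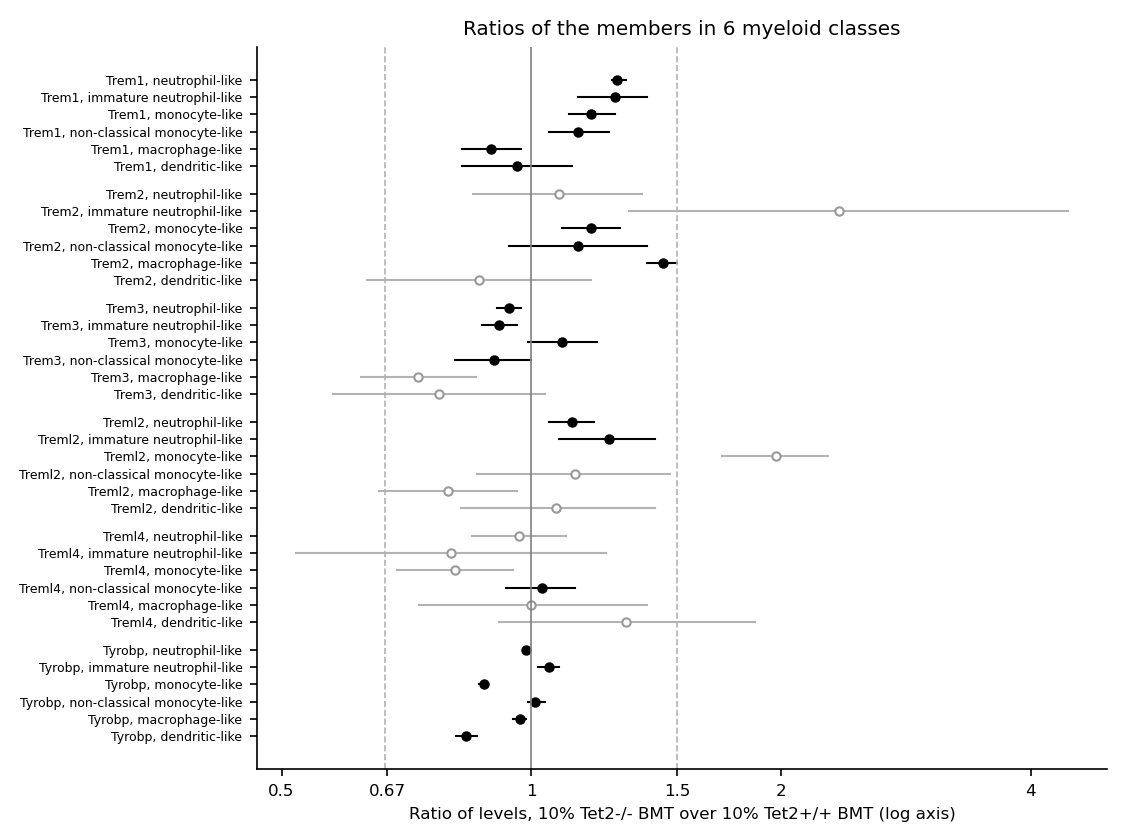
Ratio of the level in the 10% Tet2-/- BMT library over that in the 10% Tet2+/+ BMT library (horizontal log axis) for the 6 genes in 6 myeloid classes, with exact 95% intervals from the counts. Filled points are eligible genes and open grey points are not. Dashed lines mark 1.5-fold, and no filled point lies beyond them.

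Among unnamed clusters with 50 or more cells in each library, that led by Arg1, an arginine-degrading enzyme, was the one where a receptor passed the fold. Its 314 cells in the Tet2-/- library had Trem1 at 225 CPM, against 141 CPM in 81 cells of the Tet2+/+ library, a ratio of 1.6 (1.34 to 1.93), and 15.6% of eligible genes there passed the fold in either direction. Neutrophil markers summed to 30351 CPM in Tet2-/- and 24971 CPM in Tet2+/+ in this cluster. Cxcl2, which is among these markers, was itself at 14673 CPM in Tet2-/- and 7345 CPM in Tet2+/+ here. The part of neutrophil RNA in the Trem1 value was not tested. Its Trem2 was at 74.8 CPM in Tet2-/- and 93.8 CPM in Tet2+/+ and its Tyrobp at 1814 CPM in Tet2-/- and 1693 CPM in Tet2+/+. Of 2 eligible other DAP12-coupled receptors, Clec5a was called higher, at 197 CPM in Tet2-/- and 89.8 CPM in Tet2+/+. Of 13 eligible kinases and downstream genes of the tyrosine motif, 1 was called higher and 0 lower. It was Lcp2, an adaptor downstream of Syk, at 148 CPM in Tet2-/- and 86.8 CPM in Tet2+/+. Of all eligible genes in this cluster 7.83% were called higher and 7.76% lower, so that 1 of 13 does not set that list apart. The inhibitors of tyrosine-motif signalling went both ways, with 1 of 7 eligible called higher and 2 lower. The inhibitory receptor gene Lilrb4a was called higher, at 644 CPM in Tet2-/- and 424 CPM in Tet2+/+. Dok1, at 27.2 CPM in Tet2-/- and 58.9 CPM in Tet2+/+, and the ubiquitin ligase gene Cblb, at 35.3 CPM in Tet2-/- and 79.8 CPM in Tet2+/+, were called lower.

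No call was made in the signalling machinery below the receptors in the named myeloid classes. Of 17 kinases and downstream genes of the tyrosine motif, 10 to 15 were eligible per class and 0 passed 1.5-fold in any of the 6 classes. With 2.13% to 4.27% of all eligible genes past the fold in these classes, that count does not set the list apart. Syk itself was at 274 CPM in Tet2-/- and 344 CPM in Tet2+/+ in neutrophil-like and 142 CPM in Tet2-/- and 177 CPM in Tet2+/+ in macrophage-like cells. Fcer1g, an adaptor of Fc receptors with the same motif, was at 2048 CPM in Tet2-/- and 2011 CPM in Tet2+/+ in neutrophil-like cells. Of the other DAP12-coupled receptors, 2 to 6 were eligible per class and 0 passed the fold, and of 11 inhibitors 1 passed, Pirb, lower in immature neutrophil-like cells at 122 CPM in Tet2-/- and 207 CPM in Tet2+/+, where 3.74% of eligible genes passed in either direction. Candidate ligands and proteases were read in the same way. Of 9 candidate ligands, Cd177, a neutrophil surface protein, was called lower in immature neutrophil-like cells, at 486 CPM in Tet2-/- and 786 CPM in Tet2+/+, and in monocyte-like cells, at 38 CPM in Tet2-/- and 94.7 CPM in Tet2+/+, where 2.62% of eligible genes passed in either direction. Apoe, a lipoprotein bound by Trem2, was called higher in non-classical monocyte-like cells, at 5336 CPM in Tet2-/- and 2991 CPM in Tet2+/+, and in immature neutrophil-like cells, at 250 CPM in Tet2-/- and 163 CPM in Tet2+/+. Of eligible genes, 1.22% were called higher in the non-classical and 3.09% in the immature class. The macrophage markers, of which Apoe is one, summed to 5803 CPM in Tet2-/- and 3326 CPM in Tet2+/+ in the non-classical class. In the immature class they summed to 348 CPM in Tet2-/- and 214 CPM in Tet2+/+. Apoe itself made up most of each of these sums, so they largely restate its levels. The part of macrophage RNA in these calls was not tested. Pglyrp1, a peptidoglycan-binding granule protein and ligand of Trem1, was at 2143 CPM in Tet2-/- and 1900 CPM in Tet2+/+ in neutrophil-like cells. Adam17 and Adam10, proteases that shed TREM2, were not called in macrophage-like cells, with Adam17 at 102 CPM in Tet2-/- and 85.2 CPM in Tet2+/+ and Adam10 at 70 CPM in Tet2-/- and 75.4 CPM in Tet2+/+.

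Of 11 inflammatory transcripts that Trem1 signalling is known to amplify, 8 were eligible in neutrophil-like cells, and 5 were called higher and 0 lower, with a median log2 ratio of 0.74 against -0.04 for all eligible genes, of which 2.18% were called higher. The chemokine gene Ccl4 was at 1007 CPM in Tet2-/- and 423 CPM in Tet2+/+, Tnf at 144 CPM in Tet2-/- and 65.8 CPM in Tet2+/+ and the neutrophil chemoattractant gene Cxcl2 at 15411 CPM in Tet2-/- and 9094 CPM in Tet2+/+. Il1b, at 11585 CPM in Tet2-/- and 10463 CPM in Tet2+/+, was not called. Ccl3, Ccl4, Cxcl2 and Csf1 are among the 10 leading genes of the cluster led by Ccl3, which held 13.8% (Tet2-/-) and 3.95% (Tet2+/+) of the class, and the part of this mix in the calls was not tested. In immature neutrophil-like cells 4 of 7 were called higher, as were 3.09% of eligible genes. In non-classical monocyte-like cells 4 of 9 were, as were 1.22% of eligible genes, with Tnf at 115 CPM in Tet2-/- and 46.9 CPM in Tet2+/+. In macrophage-like, monocyte-like and dendritic-like cells 0 of 8, 0 of 7 and 0 of 8 passed the fold in either direction. B cell-like cells, where neutrophil markers summed to 46888 CPM in Tet2-/- and 49100 CPM in Tet2+/+, had 5 of 7 called higher, as were 1.78% of eligible genes, among them Cxcl2 at 3985 CPM in Tet2-/- and 2143 CPM in Tet2+/+. In the cluster led by Arg1 10 of 11 were called higher, as were 7.83% of eligible genes, and Cxcl1 was called lower, at 60.8 CPM in Tet2-/- and 155 CPM in Tet2+/+.

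In the named myeloid classes, lipid-handling and phagocytic genes linked to Trem2 were mostly within the fold. Of 16 listed, 13 were eligible in macrophage-like cells, and 1 was called higher and 0 lower, with a median log2 ratio of 0.11, while 0.897% of eligible genes were called higher. That gene was Spp1, which encodes the secreted protein osteopontin, at 172 CPM in Tet2-/- and 37.6 CPM in Tet2+/+, a ratio of 4.58 (4.05 to 5.19). Below the fold, the ratio was above 1 for the lysosomal genes Cd63, at 777 CPM in Tet2-/- and 542 CPM in Tet2+/+, and Ctsd, at 1729 CPM in Tet2-/- and 1244 CPM in Tet2+/+, and for the Trem2 ligand Apoe, at 33053 CPM in Tet2-/- and 26738 CPM in Tet2+/+. Lpl, lipoprotein lipase, was at 123 CPM in Tet2-/- and 178 CPM in Tet2+/+. Spp1 also passed the fold in neutrophil-like cells, at 199 CPM in Tet2-/- and 58.4 CPM in Tet2+/+, where 4.27% of eligible genes passed in either direction. In dendritic-like cells, where 2.13% did, Spp1 was called lower, at 30.2 CPM in Tet2-/- and 92.6 CPM in Tet2+/+, and Fabp5 higher, at 144 CPM in Tet2-/- and 83.8 CPM in Tet2+/+. Spp1 was also called higher in T cell-like cells and the clusters led by Siglecf and Obp1a. The shares of eligible genes called higher there were 1.63%, 1.42% and 2.2%, in that order. Spp1 was called lower in NK cell-like or ILC-like cells and the cluster led by Ltf, as were 3.54% and 1.75% of eligible genes. The cluster led by Arg1, of 314 cells in Tet2-/- and 81 cells in Tet2+/+, had Spp1 at 3041 CPM in Tet2-/- and 2528 CPM in Tet2+/+. Its part in the Spp1 values of other cell types was not tested. Non-classical monocyte-like cells had 2 of 11 called higher, as were 1.22% of eligible genes. They were Apoe and Lpl, the second at 53.7 CPM in Tet2-/- and 32.2 CPM in Tet2+/+. The part of macrophage RNA in these 2 calls was not tested. Monocyte-like cells had 1 of 8 called higher, as were 1.39% of eligible genes, the fatty acid-binding protein gene Fabp5, at 297 CPM in Tet2-/- and 160 CPM in Tet2+/+. In osteoclast-like cells, where 3.96% of eligible genes passed in either direction, Spp1 and Fabp5 were called higher. In the cluster led by Arg1 5 of 13 were called lower and 0 higher, while 7.76% of eligible genes were called lower. These were Lpl, Itgax, Fabp5, Axl and Cd36.

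Likeness of pattern was taken over 18 points, the levels of 9 classes in the 2 libraries, among 4672 genes. These points share libraries and free RNA, so the correlations only describe. The genes closest to Trem1 were Slc16a3 (r = 0.986), Mmp8 (r = 0.98), Gpat3, Fbxl5 and Braf. Among the genes closest to Trem2 were Selenop (r = 0.972), Rnase4, Prxl2b and Tpp1. Trem3 was nearest to Megf9 (r = 0.987), F630028O10Rik and the granule genes Lcn2, Wfdc21 and Cd177. For Treml4 the genes were Ace (r = 0.948), Fabp4, Adgre4, Cd300e and Smpdl3b, and Ace, Fabp4 and Adgre4, like Mmp8 and Lcn2 above, are among the markers that named the classes. Treml2 was most like Cd24a (r = 0.89) and Tyrobp most like Cers6 (r = 0.902), and Fcer1g was among the 5 nearest to Tyrobp (r = 0.891). Between the receptors, r was 0.628 for Trem1 with Trem3 and -0.201 for Trem1 with Trem2.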

How the data were processed

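Gingival CD11b+ cells were profiled with the Chromium Single Cell 3' kit version 3.1, with a loading target of about 20000 cells, per the labels. The authors deposited raw UMI counts per gene and barcode, empty barcodes included, which per the submitters' processing notes come from Cell Ranger 6.1.2 and mm10, while the matrix headers name Cell Ranger 4. Groups follow the labels. The 6 genes, the lists and the settings were chosen with earlier results of these data known.

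Cells had at least 500 UMIs and 250 genes and at most 10% mitochondrial UMIs. With scanpy 1.11.5 and leidenalg 0.10.2, 2000 variable genes, from which the 6 genes were barred so that their levels did not define clusters, gave 30 principal components and 28 clusters at resolution 1. Clusters were named from 19 marker lists: at least 3 markers and more than 1 in 3 of a list, each detected in 10% of cells with a log2 excess of 0.5. A cluster stayed unnamed when another list led its 10 top genes, when 3 gland transcripts were among them or when it was shallow with none of the list's markers among them. These naming conditions were set after the clusters were seen. Scrublet marked 0 cells of the Tet2-/- library and 346 of the Tet2+/+ library, so the caller did not work in the Tet2-/- library, and doublets were kept.

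The UMIs of each class were added up within a library and divided by the total of that class to give CPM. Intervals are exact (Poisson for levels, conditional binomial for ratios), at 95%. Named genes are the 6, list members past 1.5-fold or otherwise those with the largest ratios, and the 5 most alike by Pearson correlation of log2(CPM + 10), of which 1 is not reported here. Il1b, Syk, Fcer1g, Pglyrp1, Adam10, Adam17, Cd63, Ctsd and Apoe were named after their values were seen. The calculation was checked on simulated counts. TMM came from edgeR 4.0.16 and median of ratios factors from DESeq2 1.42.0, as alternatives. Positions are from GENCODE M21 and promoters, found for 3 of the 6 genes, from RefSeq.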

Additional observations from a re-analysis of the deposited data

Results flagged for a closer look

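Both of the following stood out because the counting intervals of a gene's ratio lay on opposite sides of 1 in 2 cell types, and in neither case was the difference between the types tested. The log2 ratio of Trem1 was higher by 0.49 in neutrophil-like cells, at 0.34, than in macrophage-like cells, at -0.15. The macrophage-like value was 0.08 with both libraries set to one mix of clusters and 0.03 with free RNA subtracted, but -0.82 with each library clustered alone, -0.67 among Y-carrying cells and -0.62 for cells with Xist over cells with Y-linked transcripts. The neutrophil-like value was -0.04 in this last setting. Neutrophil markers summed to 25972 CPM in macrophage-like cells of the Tet2-/- library, against 34940 CPM in the Tet2+/+ library, and their part was not tested. The log2 ratio of Tyrobp was higher by 0.32 in immature neutrophil-like cells, at 0.07, than in dendritic-like cells, at -0.26, and the first of these was -0.11 with TMM scaling.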

How the results depend on the processing

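No paired analysis was possible because each group has 1 library. Each value was recomputed under 21 alternatives, 2 of them chosen after seeing the data (the macrophage-like clusters led by Ccl8 and Cxcl9, or the cycling monocyte-like cluster, left out). A class needed 50 cells in each library, a minimum also set after the cell numbers were seen, so that Y-carrying cells of both libraries gave values for 2 classes, neutrophil-like and macrophage-like. The count of the 6 genes past 1.5-fold over the 6 classes was 0, and 446 gene calls were made in all. The first became 1 and the second 825 with each library clustered alone, 1 and 830 with genes eligible at 10 CPM, 1 and 704 with unnamed clusters added to the class of their best list, and 3 and 716 with Y-carrying cells of both libraries, against 0 and 161 in those 2 classes. Cells with Xist set against cells with Y-linked transcripts gave 1 and 606. These calls were Trem1 lower in macrophage-like cells, at a log2 ratio of -0.82 with libraries clustered alone, -0.62 when cells with Xist were set against cells with Y-linked transcripts and -0.67 with Y-carrying cells, Treml2 higher in monocyte-like cells at 10 CPM (0.73), Trem1 higher in dendritic-like cells with unnamed clusters added (0.61), and Trem1 (0.67) and Trem2 (0.89) higher with Y-carrying cells in neutrophil-like and macrophage-like cells. The log2 ratio of Trem2 in macrophage-like cells was above 0 under 21 of 21 alternatives, from 0.26 to 0.89, and that of Trem1 in neutrophil-like cells under 20 of 21, from -0.04 to 0.67. Trem1 in macrophage-like cells ran from -0.82 to 0.21 and was below 0 under 16 of 21. The cause of these changes was not tested.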
